A study of Mus musculus with 6 samples.

Results

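The sarcomere is held together by scaffold proteins that do not themselves pull, and the messenger RNA of 47 genes for such proteins was examined in mouse hearts. The genes were taken from a list of symbols, by exact match of the gene name in the deposited table of 54532 genes, and all 47 were found. Of these, 43 had a mean of at least 1 FPKM (fragments per kilobase of gene length, scaled to the size of each library) over the 6 hearts and were tested. The 4 below that level were Myom3, Neb, Myoz1 and Myoz3.

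A sarcomere runs from one Z-disc to the next. Alpha-actinin crosslinks the ends of the thin filaments in the Z-disc, the giant protein titin spans from there to the M-band, where myomesins tie the myosin filaments together, and myosin-binding protein C sits along the thick filament. Tropomyosin, leiomodin and tropomodulin lie on the thin filament and its pointed end, desmin filaments tie neighbouring myofibrils to each other, and a set of chaperones and ubiquitin-ligase adaptors builds and repairs the structure. Muscle exchanges some of these proteins for related forms during development and under load.

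The tested hearts came from 3 mice labelled Nat10-CKO, a cardiomyocyte-specific knockout of Nat10, and were compared with hearts of 3 Nat10flox/flox mice that carry the floxed alleles without the knockout. Nat10 encodes an RNA acetyltransferase, and the series asks about its role in heart development. All mice were 15 days old, messenger RNA of heart tissue was sequenced after poly-A selection, and each group held 3 independent biological replicates. The promoter that drives Cre and the exons that are floxed are not given in the sources used here. The groups are called CKO and flox below, as labelled. Nat10 had 3.69, 3.75 and 4.18 FPKM in CKO hearts, against 3.87, 3.78 and 4.57 FPKM in flox hearts, so its level over the whole gene in heart tissue, which also holds other cells, overlapped between the groups (log2 change −0.06 ± 0.12, SE, limma adjusted p = 0.768).

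Counts recovered from the FPKM summed to between 15048038 and 16280061 per heart. The first principal component held 64.0% of the variance and separated the groups, with CKO hearts at 14.87 to 50.02 and flox hearts at −38.7 to −19.1. CKO replicate 1 lay at the far end, and CKO replicate 2 and flox replicate 3 were the nearest pair across the groups. Of 10 cardiomyocyte markers, 4 were lower in CKO hearts (40%, against 7.19% of all genes tested) and 0 were higher, and their summed level was 13710 to 15656 FPKM in CKO hearts, against 18080 to 22802 FPKM in flox hearts. Fewer muscle cells and less RNA per muscle cell cannot be told apart in these bulk samples. Of 7 fibroblast markers, 3 were higher in CKO hearts (42.9%, against 6.93% of all genes tested) and 0 were lower (summed level 944 to 1168 FPKM in CKO hearts and 609 to 790 FPKM in flox hearts). Of 7 smooth muscle markers, 6 were tested, of which 1 (16.7%) was lower and 0 were higher. Their summed level was 180 to 240 FPKM in CKO hearts and 277 to 429 FPKM in flox hearts, most of it Acta2, and the single markers went both ways. Acta2 averaged 166 FPKM in CKO hearts and 281 FPKM in flox hearts, whereas Cnn1 averaged 6.23 FPKM in CKO hearts and 1.18 FPKM in flox hearts. The Cnn1 groups overlapped, at 1.60 FPKM in CKO replicate 2 and 2.26 FPKM in flox replicate 2. Lmod1 and the untested Tagln were at higher levels in all 3 CKO hearts, and Myh11 and Mylk overlapped between groups. The part of these cell types in the changes below was not tested. Of 9 fast skeletal muscle markers, 0 reached a mean of 1 FPKM. Myh1 and Myh2, which encode fast myosin heavy chains, had 0 counts in all 6 hearts, while Tnnt3 and Mylpf had low counts in every heart.

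The scaffold genes moved in both directions rather than as a block. In CKO hearts Klhl41, Tcap, Klhl40, Unc45b, Lmod3 and Actn2 were lower, and Tpm2, Mybpc2, Synpo2l, Actn1, Synm and Smpx were higher. A gene is called here when limma, fitted to log2(FPKM + 1) over all 12469 genes with a mean of at least 1 FPKM, gave a Benjamini-Hochberg adjusted p under 0.05. By that rule 12 of the 43 tested members were called (27.9%), against 14.1% of all genes tested. The members and the other gene lists were chosen with earlier results of these data known. A share above the background is therefore not a test of these genes as a group. The 6 members called lower made up 14.0%, against a background of 7.19%, and the 6 called higher made up 14.0%, against a background of 6.93%. The groups did not overlap for 14 members that were lower in CKO hearts (32.6%, background 19.9%) and 13 that were higher (30.2%, background 19.7%). The median log2 change over the 43 members was −0.28, and over all genes tested it was −0.00. With TPM scaling, which moved the median log2 change of all genes up by 0.13, 4 members were called lower and 10 higher, and with total-count scaling (a shift of 0.11) 4 were called lower and 9 higher.

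**Figure D1:**
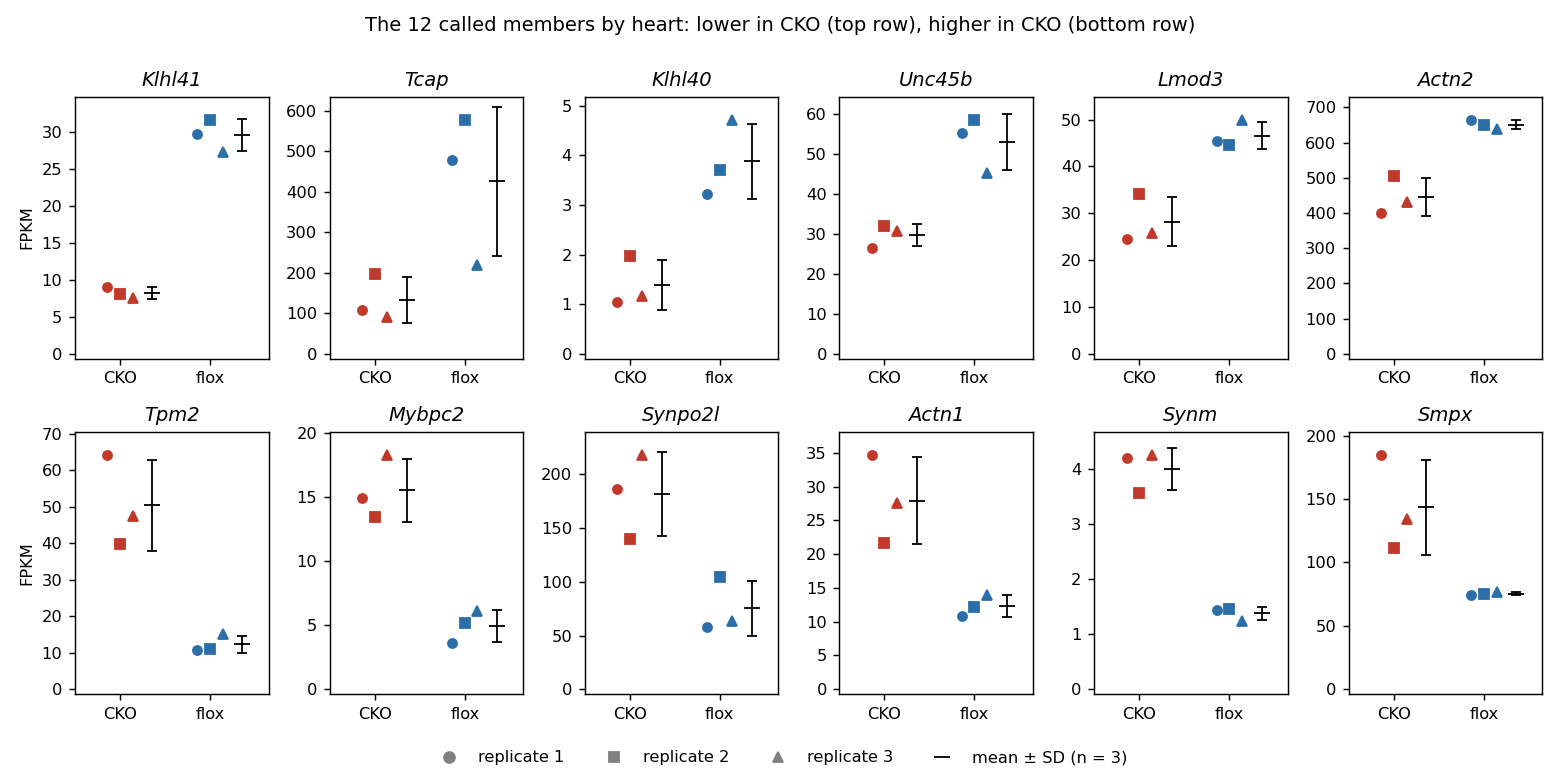
FPKM of the 12 called members in each heart, CKO at the left and flox at the right of each panel, with 1 symbol per replicate and the mean ± SD over 3 hearts beside it. In every panel the 3 CKO hearts lie on one side of the 3 flox hearts. Klhl41 has the clearest separation among the falls, at no more than 9.08 FPKM in CKO hearts and at least 27.3 FPKM in flox hearts.

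The roles differed in which way they went. All 7 tested assembly factors had a log2 change below 0, of which 3 were called, and their median was −0.63. The thin filament group had a median of −0.54 with 1 member called in each direction among 8 tested. In the Z-disc core, 2 of 8 tested genes were called lower and 1 higher at a median of −0.41. Titin, the myosin-binding proteins and the M-band genes had a median of −0.28 over 7 tested genes, of which 1 was called higher. The PDZ-LIM and actin linkers, with 1 of 7 called higher, had a median of 0.29. The intermediate filament and maintenance genes had a median of 0.61, and 2 of 6 were called higher. Of all genes tested, 7.19% were called lower and 6.93% higher, and 6251 of 12469 had a log2 change below 0. A fall was not particular to these roles. The 10 cardiomyocyte markers are not members, but most encode contractile sarcomere proteins. They had a median of −0.55, with 9 below 0, 1 above 0 and 4 called lower. These medians describe the lists and were not tested against each other.

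**Figure D2:**
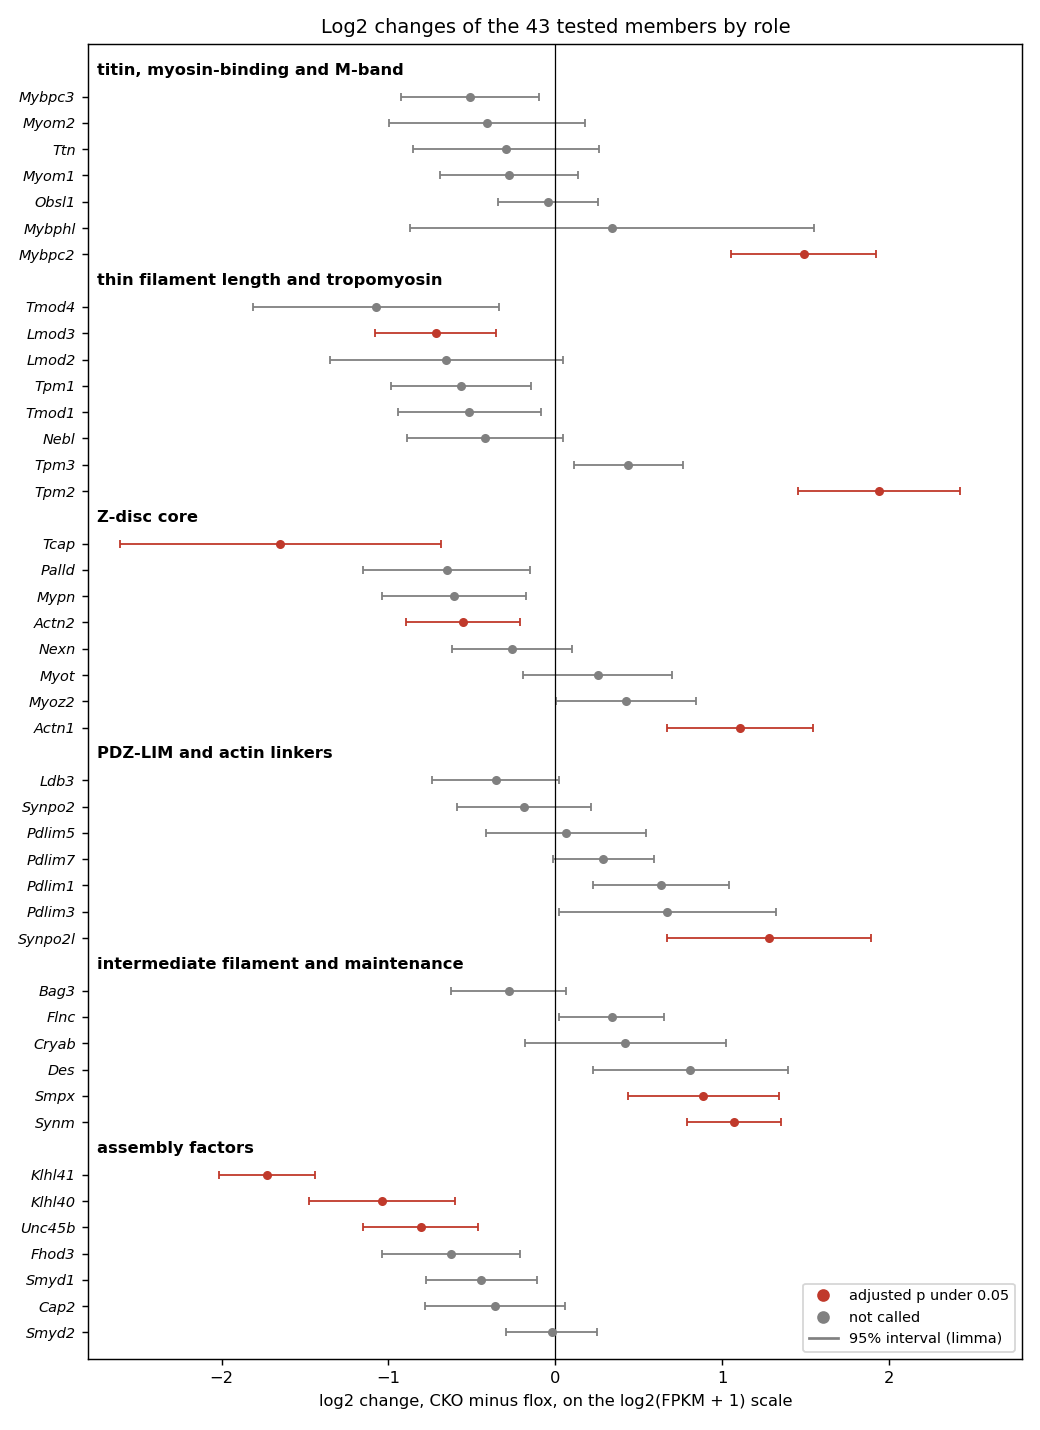
Log2 change of each of the 43 tested members, CKO minus flox on the log2(FPKM + 1) scale, with its 95% interval from limma, grouped by role. Members with an adjusted p under 0.05 are in red. The assembly factors at the bottom all lie at or left of 0, while 5 of the 6 intermediate filament and maintenance genes lie to the right.

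RefSeq promoter windows (GRCm38.p6, 250 bases before to 50 bases after a start site) were at hand for 37 of the members, with 47 windows in all. The motif of MEF2, a family of muscle transcription factors, was searched on both strands and was in 8 member windows (17%), against 3.19% of the 32851 windows in the table. The MCAT element, CATTCC on either strand, was in 10 member windows (21.3%, against 14.7% of all). The CArG box, the motif of serum response factor, was in 4 member windows (8.51%, against 1.63% of all). It was in 0 of 4 windows of members called lower and 0 of 7 windows of members called higher. These are too few windows to read an absence from, and the called Tcap and Lmod3 had no window. Windows of a gene can overlap, so that 1 CArG box of Ldb3 and 1 MCAT element of Flnc were each counted in 2 windows. Other motifs were searched too. The GATA motif, WGATAR, was in 16 member windows (34%, against 29.8% of all). The E-box, CANNTG, was in 33 (70.2%, against 72.3% of all). The TATA box, searched on the forward strand only, was in 4 (8.51%, against 12.5% of all). The windows of 3 called members carry a MEF2 motif or an MCAT element. Klhl41 fell most among the called members in the reported fit, and Synpo2l rose. Both hold a MEF2 motif, so members with that motif moved both ways. Mybpc2 rose and holds the only MCAT element among the called members' windows. The capitals mark the MEF2 motif in the first 2 windows and the MCAT element in the third, which reads GGAATG there because it lies on the other strand. The motif begins at position −63 in Klhl41, −109 in Synpo2l and −62 in Mybpc2, counted from the start site. A second Synpo2l window, not printed, also holds a MEF2 motif, at −144 from its own start site. The Klhl41 window is chr2:69669870-69670169 on the plus strand, that of Synpo2l is chr14:20668305-20668604 on the minus strand, and that of Mybpc2 is chr7:44524620-44524919 on the minus strand, each printed 5′ to 3′ along the gene. A match to a motif is a match of letters and does not show binding.
Klhl41: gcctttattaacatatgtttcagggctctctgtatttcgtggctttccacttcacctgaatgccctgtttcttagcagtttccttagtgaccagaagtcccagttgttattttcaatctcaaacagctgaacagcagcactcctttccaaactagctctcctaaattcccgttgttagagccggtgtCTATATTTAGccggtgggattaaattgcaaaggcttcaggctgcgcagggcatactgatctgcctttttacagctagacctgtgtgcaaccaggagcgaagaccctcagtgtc
Synpo2l: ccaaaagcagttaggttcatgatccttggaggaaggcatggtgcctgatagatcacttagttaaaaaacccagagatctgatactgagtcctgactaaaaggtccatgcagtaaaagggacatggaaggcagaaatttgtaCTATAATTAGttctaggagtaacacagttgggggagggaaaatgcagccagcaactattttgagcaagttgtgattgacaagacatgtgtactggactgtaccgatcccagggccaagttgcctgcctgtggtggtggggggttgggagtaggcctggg
Mybpc2: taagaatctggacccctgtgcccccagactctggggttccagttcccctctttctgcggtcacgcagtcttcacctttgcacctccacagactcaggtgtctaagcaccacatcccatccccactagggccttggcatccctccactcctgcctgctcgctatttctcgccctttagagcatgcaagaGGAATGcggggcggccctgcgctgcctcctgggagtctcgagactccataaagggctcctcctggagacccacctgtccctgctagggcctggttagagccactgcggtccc

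Of the 7 factors that assemble sarcomeres and stabilise their proteins, Klhl41, Klhl40 and Unc45b were lower in CKO hearts, and the other 4 were not called. Klhl41, a ubiquitin-ligase adaptor of striated muscle that stabilises nebulin (chromosome 2, 69670120 to 69684230, GRCm38), had 9.08, 8.11 and 7.52 FPKM in CKO hearts, against 29.8, 31.7 and 27.3 FPKM in flox hearts. Every CKO heart was below every flox heart by a wide margin. This is a log2 change of −1.73 ± 0.12 (SE over 3 hearts in each group, limma adjusted p = 0.00148). Klhl40, a related adaptor that stabilises nebulin and leiomodin-3 (chromosome 9, 121777607 to 121783818), had 1.05, 1.97 and 1.16 FPKM in CKO hearts, against 3.23, 3.70 and 4.72 FPKM in flox hearts. The groups did not overlap, at 44 to 197 counts per heart (−1.04 ± 0.19, limma adjusted p = 0.0153). The log2(FPKM + 1) scale understates changes of such low genes, and voom on the recovered counts gave −1.52 for Klhl40. An antisense gene, Gm47108, covers 21.6% of the Klhl40 exons at a mean of 0.0721 FPKM.

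Unc45b, the chaperone that folds the myosin head (chromosome 11, 82910550 to 82943403), had 26.6, 31.9 and 30.8 FPKM in CKO hearts, against 55.3, 58.5 and 45.1 FPKM in flox hearts. The 3 CKO hearts were close together and all lower (−0.81 ± 0.15, limma adjusted p = 0.0158). Fhod3, a formin that promotes actin filament assembly in the sarcomere, had 45.9, 53.6 and 62.8 FPKM in CKO hearts, against 90.5, 92.9 and 69.0 FPKM in flox hearts. Its groups did not overlap, but it was not called (−0.63 ± 0.18, limma adjusted p = 0.0548). Smyd1, a lysine methyltransferase of heart and skeletal muscle, was not called either, at 82.1 ± 8.12 FPKM in CKO hearts and 112 ± 11.7 FPKM in flox hearts (SD, n = 3 each). The related Smyd2 averaged 27.9 ± 1.06 FPKM in CKO hearts and 28.3 ± 2.11 FPKM in flox hearts, a log2 difference of −0.02 with a 95% interval from −0.30 to 0.25, whose sign changed with TPM and total-count scaling. Cap2, a cyclase-associated protein that acts on actin, had a log2 change of −0.36 ± 0.18 and was not called. The settings named here and further on for lost calls leave out the replicate block. The call of Klhl41 held in all 19 alternative fits (adjusted p at most 0.0168). That of Klhl40 was lost without CKO replicate 3, without flox replicate 2 and with no filter on low values (adjusted p up to 0.0598). That of Unc45b was lost without flox replicate 1 and without flox replicate 2 (adjusted p up to 0.0792).

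Of the tropomyosins, which cover the thin filament, Tpm2 was higher in CKO hearts, and Tpm1 and Tpm3 were not called. Tpm2, the beta form of skeletal and smooth muscle that is minor in the adult mouse heart (chromosome 4, 43514711 to 43523765), had 64.0, 39.7 and 47.4 FPKM in CKO hearts, against 10.8, 11.04 and 15.1 FPKM in flox hearts. The lowest CKO heart was above the highest flox heart. In the reported fit on log2(FPKM + 1), this was the largest log2 change among the 43 tested members, at 1.94 ± 0.21 (SE, limma adjusted p = 0.00377). Tpm1, the main cardiac tropomyosin, had 756, 646 and 605 FPKM in CKO hearts, against 1115, 1062 and 810 FPKM in flox hearts. Its groups did not overlap either, in the opposite direction, but it was not called (−0.57 ± 0.18, limma adjusted p = 0.0777). Tpm3, a form of slow skeletal muscle and of non-muscle cells, averaged 26.2 ± 3.11 FPKM in CKO hearts and 19.1 ± 2.07 FPKM in flox hearts (SD, n = 3 each) and was not called (limma adjusted p = 0.0775). Of the summed FPKM of these 3 genes, Tpm2 made up 6.71 ± 1.003% in CKO hearts and 1.25 ± 0.467% in flox hearts. Tpm1 remained the bulk, at 89.8 ± 1.03% in CKO hearts and 96.8 ± 0.992% in flox hearts. Tpm2 and Tpm3 are also transcribed in smooth muscle and fibroblasts, and the markers Cnn1, Tagln and Lmod1 had higher means in CKO hearts while Acta2 and Smtn had lower ones. The part of these cells in the Tpm2 change was not tested.

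Among the proteins that set thin filament length, leiomodins and tropomodulins cap or extend the pointed end, and nebulin and its heart relative nebulette bind along actin. Lmod3 (chromosome 6, 97238534 to 97252759) had 24.6, 34.2 and 25.8 FPKM in CKO hearts, against 45.4, 44.5 and 49.9 FPKM in flox hearts. It was lower in all 3 CKO hearts (−0.72 ± 0.16, limma adjusted p = 0.0262). The cardiac leiomodin Lmod2 overlapped between groups, because flox replicate 3, at 128 FPKM, lay among CKO hearts of 114, 111 and 164 FPKM, while the other flox hearts had 240 and 265 FPKM. Tmod1, the cardiac tropomodulin, had 37.7, 47.4 and 51.3 FPKM in CKO hearts, against 75.7, 68.0 and 53.0 FPKM in flox hearts. The groups were separate by a small gap, and the gene was not called (−0.51 ± 0.18, limma adjusted p = 0.102). The antisense gene Tstd2, at a mean of 2.8 FPKM, covers 32.6% of the Tmod1 exons. Tmod4, a tropomodulin of skeletal muscle, had 0.313, 0.496 and 0.442 FPKM in CKO hearts, against 2.08, 3.67 and 0.837 FPKM in flox hearts. It passed the filter on low values only through the flox hearts, and was not called (−1.07 ± 0.32, limma adjusted p = 0.0622). Nebl was at 19.9 ± 4.96 FPKM in CKO hearts and 26.7 ± 4.38 FPKM in flox hearts, and its groups overlapped. Neb was detected at a low level in both groups, at 24 to 74 counts per heart over its 26582 bases, and was not tested. The call of Lmod3 was lost without CKO replicate 3, without each flox heart in turn, with no filter and with TPM or total-count scaling (adjusted p up to 0.0994).

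In the myosin-binding protein C family the skeletal form rose beside a predominant cardiac form. Mybpc2, the form of fast skeletal muscle (chromosome 7, 44501699 to 44524656), had 15.0, 13.5 and 18.3 FPKM in CKO hearts, against 3.64, 5.15 and 6.08 FPKM in flox hearts. All CKO hearts were above all flox hearts (log2 change 1.49 ± 0.19, SE, limma adjusted p = 0.00593). The fast myosin genes Myh1 and Myh2 had no count in these hearts. Other fast muscle markers were detected at means below 1 FPKM. Tnnt3 averaged 0.814 FPKM in CKO hearts and 0.740 FPKM in flox hearts, and Mylpf 0.438 and 0.652 FPKM, with overlapping groups. Tnni2 was lower in CKO hearts (0.0801 against 0.859 FPKM), and Actn3 was higher (0.105 against 0.0151 FPKM). The part of skeletal muscle in the Mybpc2 change was not tested. Mybpc3, the cardiac form, had 627, 908 and 755 FPKM in CKO hearts, against 1081, 1011 and 1138 FPKM in flox hearts. Its groups did not overlap, and it was not called (−0.51 ± 0.18, limma adjusted p = 0.0937). Mybpc2 made up 2.05 ± 0.513% of the summed FPKM of both genes in CKO hearts and 0.458 ± 0.107% in flox hearts. The calls of Mybpc2 and Tpm2 held in all 19 alternative fits, with adjusted p of at most 0.0294 and 0.0229.

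Titin and the M-band genes were not called. Ttn, whose 116825 bases gathered 38124 to 68987 counts per heart, had 19.5, 30.5 and 35.7 FPKM in CKO hearts, against 42.2, 32.0 and 29.7 FPKM in flox hearts. The groups overlapped, and CKO replicate 1 was lowest (−0.30 ± 0.24, limma adjusted p = 0.430). The myomesin genes Myom1 and Myom2, which encode M-band crosslinkers, had log2 changes of −0.28 ± 0.18 for Myom1 and −0.41 ± 0.25 for Myom2 with overlapping groups. Myom1 shares 1.98% of its exons with the antisense gene Myl12a, which had a mean of 83.8 FPKM. Myom3, another myomesin gene, stayed under 1 FPKM in every heart. Obsl1, an obscurin relative, had a log2 change of −0.04 with a 95% interval from −0.34 to 0.25, and its sign changed with TPM and total-count scaling.

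Of the alpha-actinins of the Z-disc core group, the muscle form was lower and the non-muscle form higher. Actn2, the crosslinker of cardiac Z-discs (chromosome 13, 12269426 to 12340760), had 399, 505 and 432 FPKM in CKO hearts, against 664, 649 and 638 FPKM in flox hearts. The flox hearts were within a narrow range and all above the CKO hearts (log2 change −0.55 ± 0.15, SE, limma adjusted p = 0.0466). Actn1, the form of stress fibres and adhesions in many cell types (chromosome 12, 80167547 to 80260371), had 34.6, 21.7 and 27.6 FPKM in CKO hearts, against 10.8, 12.1 and 14.0 FPKM in flox hearts. It was higher in all 3 CKO hearts (1.105 ± 0.19, limma adjusted p = 0.0129). Actn1 made up 6.03 ± 1.93% of the summed FPKM of both genes in CKO hearts and 1.86 ± 0.274% in flox hearts. The Actn2 call lay near the threshold. It was lost without each of CKO replicates 1 and 3 and flox replicates 1, 2 and 3, with no filter, and with TPM, total-count or quantile scaling (adjusted p up to 0.174). The Actn1 call was lost without flox replicate 1 and without flox replicate 2 (adjusted p up to 0.0628).

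Tcap, or telethonin, which joins titin molecules at the edge of the Z-disc (chromosome 11, 98383811 to 98384953), had 107, 198 and 92.0 FPKM in CKO hearts, against 479, 577 and 220 FPKM in flox hearts. The highest CKO heart and the lowest flox heart, flox replicate 3, were close to each other. The log2 change was −1.65 ± 0.41 (limma adjusted p = 0.0389), with the widest standard error among the called members. The call was lost without CKO replicate 1 or 3, without flox replicate 1 or 2 and with no filter (adjusted p up to 0.135). Mypn, or myopalladin, had 12.8, 18.4 and 18.5 FPKM in CKO hearts, against 30.3, 21.9 and 24.8 FPKM in flox hearts. Its relative Palld, or palladin, had 23.6, 33.2 and 34.4 FPKM in CKO hearts, against 59.3, 49.0 and 37.3 FPKM in flox hearts. Both had groups that did not overlap and neither was called (limma adjusted p = 0.0681 for Mypn and 0.0835 for Palld). Nexn and Myot, which encode the actin-binding nexilin and myotilin, overlapped between groups, with log2 changes of −0.26 ± 0.15 for Nexn and 0.25 ± 0.19 for Myot.

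None of the 3 calsarcins, which bind calcineurin at the Z-disc, was called. Myoz2, the cardiac form, had 244, 200 and 221 FPKM in CKO hearts, against 185, 183 and 131 FPKM in flox hearts. Every CKO heart was higher, but the gene was not called (log2 change 0.42 ± 0.18, limma adjusted p = 0.152). Myoz1, a form of fast skeletal muscle, had 0.948, 0.804 and 0.801 FPKM in CKO hearts, against 0.189, 0.347 and 0.253 FPKM in flox hearts, from 5 to 30 counts per heart. It was below the filter, and a fit with no filter called it higher at an adjusted p of 0.0496 (limma, log2 change 0.55 ± 0.10). Myoz3 had 0 counts in all 6 hearts, and 3 counts would correspond to 0.206 to 0.246 FPKM.

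The PDZ-LIM proteins dock signalling enzymes and other partners on alpha-actinin, and the synaptopodins bundle actin. Synpo2l, a cardiac and skeletal muscle relative of synaptopodin (chromosome 14, 20658946 to 20668354), was the called member of this group. It had 186, 140 and 218 FPKM in CKO hearts, against 58.0, 105 and 63.6 FPKM in flox hearts. Every CKO heart was above every flox heart (log2 change 1.28 ± 0.26, limma adjusted p = 0.0222). The call was lost without CKO replicate 1 or 3, without flox replicate 1 or 3 and with no filter (adjusted p up to 0.0875). Its relative Synpo2 averaged 8.49 ± 1.58 FPKM in CKO hearts and 9.77 ± 1.71 FPKM in flox hearts (SD, n = 3 each), with overlapping groups. Pdlim1 had 30.0, 20.1 and 22.7 FPKM in CKO hearts, against 13.8, 14.2 and 17.4 FPKM in flox hearts. It lay just above the threshold with groups that did not overlap (0.63 ± 0.18, limma adjusted p = 0.0518). Pdlim7 averaged 16.6 ± 1.31 FPKM in CKO hearts and 13.4 ± 1.46 FPKM in flox hearts, and was not called (limma adjusted p = 0.172). Ldb3, the cypher gene of the cardiac Z-disc, and Pdlim5 had overlapping groups, with log2 changes of −0.36 ± 0.16 for Ldb3 and 0.06 ± 0.21 for Pdlim5, the sign of Pdlim5 changing with quantile scaling.

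The atrial muscle markers Myl7, Myl4 and Sln differed widely between hearts of the same group, and some members were high in the same hearts. The summed level of 7 atrial muscle markers was 50.5, 11.7 and 40.8 FPKM in CKO replicates 1, 2 and 3, against 16.1, 112 and 12.3 FPKM in flox replicates 1, 2 and 3. Of these 7 markers, 6 were tested, 0 were called higher and 1, Tbx5, was called lower. The other markers did not follow Myl7 in both groups. Nr2f2 was at 2.78 to 3.70 FPKM in all hearts, and Bmp10 was near 0. Stard10 was similar in the 3 CKO hearts but highest in flox replicate 2, at 4.61, 7.79 and 3.02 FPKM in flox hearts. Tbx5 was highest in CKO replicate 2 among CKO hearts and in flox replicate 1 among flox hearts. Myl7, an atrial myosin light chain, had 31.2, 0.206 and 25.9 FPKM in CKO hearts, against 0.242, 77.7 and 0.406 FPKM in flox hearts. Mybphl, a myosin-binding protein of atrial muscle, had 1.41, 0.143 and 2.18 FPKM in CKO hearts, against 0.168, 2.37 and 0.0938 FPKM in flox hearts. The same 3 hearts, CKO replicates 1 and 3 and flox replicate 2, were high for both genes, and Mybphl overlapped between groups (log2 change 0.34 ± 0.52, 95% interval −0.87 to 1.55, limma adjusted p = 0.686). Pdlim3, the actinin-associated LIM protein, had 10.99, 6.14 and 9.55 FPKM in CKO hearts, against 3.94, 7.89 and 4.08 FPKM in flox hearts. These 3 hearts were also its highest, and its groups overlapped (0.67 ± 0.28, limma adjusted p = 0.144). For Synpo2l too, CKO replicate 2 was the lowest CKO heart and flox replicate 2 the highest flox heart. In the 3 hearts with little Myl7, Synpo2l was at 140 FPKM in CKO replicate 2, against 58.0 and 63.6 FPKM in flox replicates 1 and 3. The part of atrial tissue in the Synpo2l change was not tested.

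**Figure D3:**
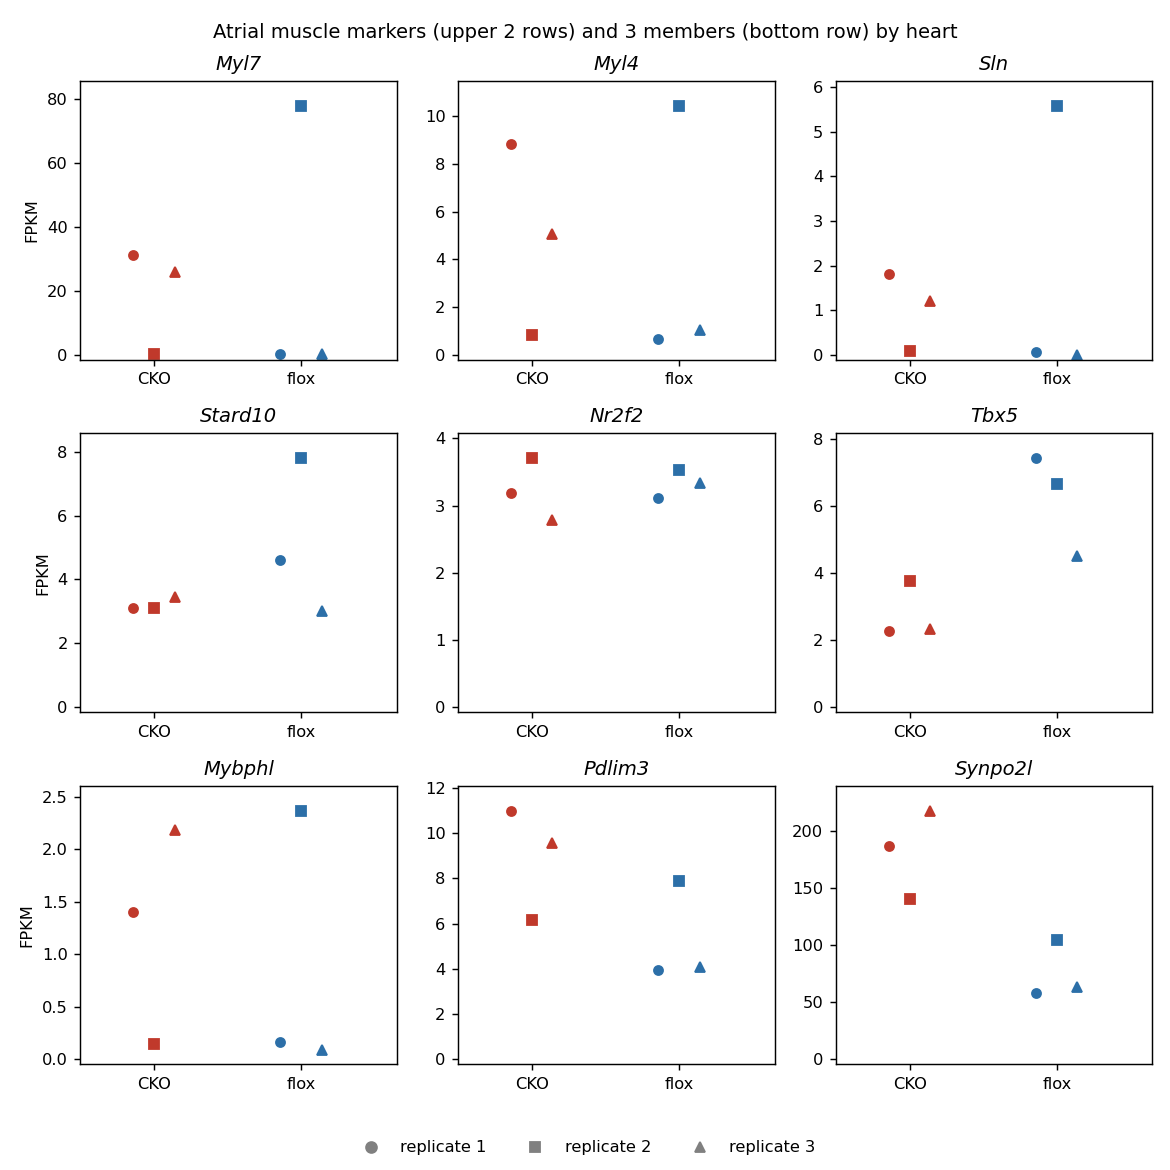
FPKM of the 6 tested atrial muscle markers (upper rows) and of 3 members (bottom row) in each heart, CKO at the left and flox at the right, with 1 symbol per replicate. CKO replicates 1 and 3 and flox replicate 2 are high for Myl7, Myl4, Sln, Mybphl and Pdlim3. Nr2f2 and Tbx5 do not show this pattern. Stard10 is highest in flox replicate 2 but similar in the 3 CKO hearts. Synpo2l is higher in all 3 CKO hearts.

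Genes for the intermediate filaments and for maintenance under load were higher in CKO hearts or not called. Synm, or synemin, which joins desmin filaments (chromosome 7, 67730160 to 67759742), had 4.19, 3.56 and 4.24 FPKM in CKO hearts, against 1.44, 1.45 and 1.25 FPKM in flox hearts. The replicates of each group were close together and the groups were far apart (log2 change 1.07 ± 0.12, SE, limma adjusted p = 0.00415). The ratio of the mean FPKM was 2.90, more than the log2(FPKM + 1) scale shows for a gene at this level, and voom on recovered counts gave a log2 change of 1.54. The antisense gene Ttc23, at a mean of 1.56 FPKM, covers 1.06% of the Synm exons. Smpx, a small protein of striated muscle linked to mechanical stress (chromosome X, 157698910 to 157752591), had 184, 111 and 134 FPKM in CKO hearts, against 74.0, 75.4 and 76.7 FPKM in flox hearts. The flox hearts were almost equal and the CKO hearts were spread above them (0.89 ± 0.19, limma adjusted p = 0.0264). Its call was lost without CKO replicate 3, without each flox heart in turn and with no filter (adjusted p up to 0.105). The call of Synm held in all the alternative fits that kept it, with adjusted p of at most 0.0352. It was below the stricter filter of 5 FPKM.

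Des, which encodes desmin, had 1142, 631 and 626 FPKM in CKO hearts, against 469, 447 and 399 FPKM in flox hearts. CKO replicate 1 stood far above the others, and all CKO hearts were above all flox hearts. With 3 hearts in each group Des was not called (0.81 ± 0.25, limma adjusted p = 0.0708), and without CKO replicate 1 it was called at a smaller change (0.52, limma adjusted p = 0.0476). It was also called with TPM (adjusted p = 0.0234), total-count (0.0376) and quantile scaling (0.0220) and with array weights (0.0438). Cryab, the small heat shock protein that protects desmin, had 682, 360 and 365 FPKM in CKO hearts, against 333, 314 and 357 FPKM in flox hearts. CKO replicate 1 was again highest, and the other CKO hearts lay within 10 FPKM of the highest flox heart (0.42 ± 0.26, limma adjusted p = 0.299). Hspb2 lies antisense to 17.0% of the Cryab exons, at a mean of 42.4 FPKM. Flnc, the muscle filamin, averaged 63.5 ± 7.37 FPKM in CKO hearts and 49.9 ± 2.83 FPKM in flox hearts (SD, n = 3 each). Bag3, the co-chaperone that clears damaged filamin, averaged 62.4 ± 3.23 FPKM in CKO hearts and 76.5 ± 11.7 FPKM in flox hearts. Neither was called (limma adjusted p = 0.134 for Flnc and 0.237 for Bag3).

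**Figure D4:**
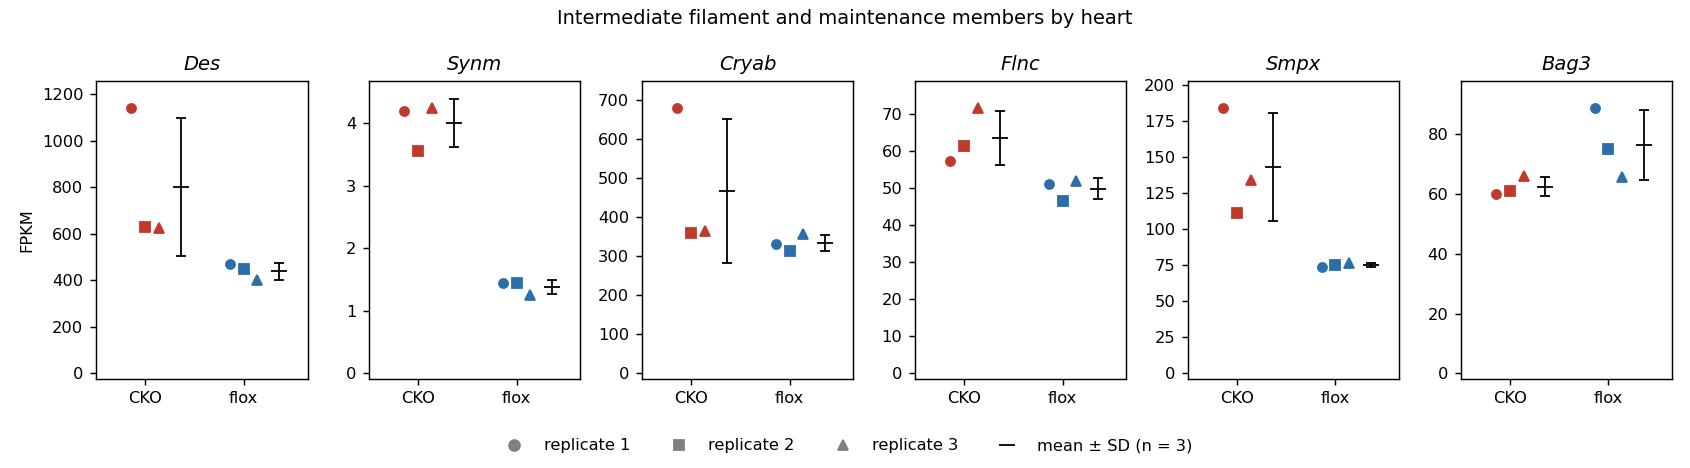
FPKM of the 6 intermediate filament and maintenance genes in each heart, CKO at the left and flox at the right, with 1 symbol per replicate and the mean ± SD over 3 hearts. CKO replicate 1 stands above the other CKO hearts for Des (1142 FPKM) and Cryab (682 FPKM). Synm shows little spread within either group.

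Ratios of related genes within a heart do not depend on how hearts are scaled to each other, apart from the pseudocount. Over 18 pairs of related members, 10 had log2 ratios whose groups did not overlap. The share among ratios of other genes was not computed. Of all single genes tested, groups did not overlap for 19.9% that were lower in CKO hearts and 19.7% that were higher. The exact two-sided permutation test cannot give a p below 0.1 for 3 hearts against 3, and these 10 pairs reached that p (0.18 after Benjamini-Hochberg adjustment over the 18 pairs). The Tpm2/Tpm1 log2 ratio was −3.73 ± 0.234 in CKO hearts and −6.23 ± 0.4995 in flox hearts (SD, n = 3 each), a difference of 2.50. For Mybpc2/Mybpc3 the log2 ratio was −5.52 ± 0.392 in CKO hearts and −7.52 ± 0.300 in flox hearts, a difference of 1.999. For Actn1/Actn2 it was −3.96 ± 0.496 in CKO hearts and −5.62 ± 0.202 in flox hearts, a difference of 1.66. In each of these 3 pairs the gene with the lower level gained on the main cardiac form in every CKO heart. Tpm3/Tpm1 differed by 1.004, Klhl40/Klhl41 by 0.69, Pdlim1/Pdlim5 by 0.57 and Smyd2/Smyd1 by 0.42, all higher in CKO hearts. Synpo2/Synpo2l differed by −1.47, Tmod4/Tmod1 by −0.56 and Myoz3/Myoz2 by −0.42. The last follows Myoz2 alone, since Myoz3 had no counts. Tmod4 was below 1 FPKM in every CKO heart, so the pseudocount sets much of its ratio, and with a pseudocount of 0.1 the difference was −1.43. Pairs with overlapping groups included Myom2/Myom1 (difference −0.13), Lmod3/Lmod2 (−0.06), Palld/Mypn (−0.04) and Synm/Des (0.26).

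**Figure D5:**
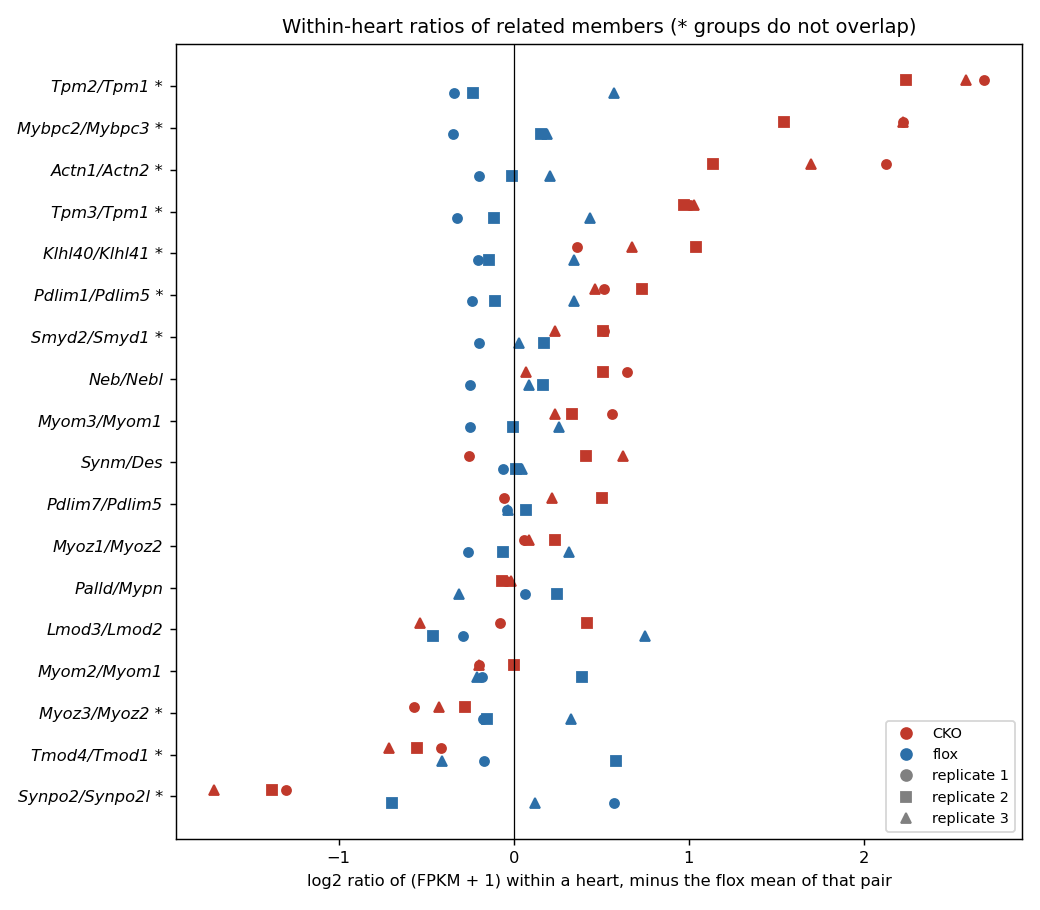
Log2 ratio of related members within each heart, computed from FPKM + 1 and shown minus the flox mean of the pair, with CKO hearts in red above flox hearts in blue. An asterisk marks the 10 pairs whose groups do not overlap. Tpm2/Tpm1, Mybpc2/Mybpc3 and Actn1/Actn2 are shifted furthest to the right.

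Other genes of the contractile apparatus also went both ways. Of 29 sarcomere and Z-disc genes outside the list, all of them tested, 5 were called lower (17.2%, background 7.19%) and 5 higher (17.2%, background 6.93%), at a median log2 change of −0.02. These genes too were chosen with earlier results of these data known. They include the contractile genes among the cardiomyocyte markers, such as the called Myh6, Tnnt2 and Myl2, so these lists overlap. Among the called genes, the largest falls were those of Tnnt2 (−1.13), the cardiac troponin T gene, Myh6 (−1.02), the main cardiac myosin heavy chain gene, and Speg (−1.02), a kinase gene of the junctional membrane. Among the called genes, the largest rises were those of Ankrd1 (2.96), Xirp2 (2.57) and Fhl1 (1.69), which encode stretch-responsive or actin-linked muscle proteins.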

How the data were processed

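Heart tissue RNA of 3 CKO and 3 flox mice was sequenced. Per the submitters' processing notes, HISAT2 2.0.5, featureCounts 1.5.0-p3 and CASAVA were among the tools used, with GRCm38 (mm10). The authors deposited FPKM values and a gene length in bases, with other annotation, in a table of 1 column per heart. The strand setting of the counting is not stated. Dividing each FPKM by the value of a single fragment gave whole numbers (within 0.01) for 100% of values above 0, the recovered counts, and the library sizes implied were median-ratio sizes (size factors 0.893 to 1.07).

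Expression was tested on log2(FPKM + 1) over the 12469 genes with a mean of at least 1 FPKM, with limma 3.58.1 in R 4.3.3 (genotype as the only term, trended moderation, two-sided, Benjamini-Hochberg over all genes). Fold changes on this scale understate low genes. Errors of log2 changes are SE and those of levels SD. Single ratios were compared by exact permutation. The procedure was tested on simulated data. Exon overlaps came from GENCODE M21 (GRCm38). Every member could be named, and values per heart were given for called members and for those with separate groups and a log2 change of at least 0.5 either way. The members and lists were chosen with earlier results of these data known. Alternatives were pseudocounts of 0.1 and 0.5, no filter, a filter of 5 FPKM, protein-coding genes only, TPM, total-count and quantile scaling, no trend, robust moderation, array weights, voom, the replicate block and each heart left out.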

Additional observations from a re-analysis of the deposited data

How the results depend on the processing

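Of the 12 called members, 0 changed sign in any of the 19 alternative fits, while 43 of the 226 combinations of a called member and an alternative lost the call. Klhl41, Tpm2, Mybpc2 and Synm, 4 members, kept it in every fit that tested them. Against 6 lower and 6 higher in the reported fit, 2 members were called lower with no filter, 10 higher with TPM, 11 lower and 10 higher with array weights, which gave CKO replicate 1 a weight of 0.264, and 3 lower with the replicate block, which lost Lmod3, Actn2, Synpo2l, Smpx and Unc45b (adjusted p 0.0612 to 0.132). With the block 4 were called higher. Leaving out 1 heart gave 1 to 8 members called lower and 3 to 7 called higher. The fewest called lower were 1 without flox replicate 2, and 2 without flox replicate 1 or CKO replicate 3. Without flox replicate 3, 8 were called lower, of which 4 were shared with the reported calls. The causes were not tested. No label says that the numbers pair the hearts. Deviations from the group mean correlated between same-numbered hearts at −0.283, −0.137 and −0.192. With 3 hearts in each group, these values cannot settle whether the numbers mark a litter or batch. Of all tested members, 3 changed sign in some fit (Obsl1, Pdlim5 and Smyd2), all with log2 changes near 0. Pairs with separate groups numbered 10 to 13 over the alternatives run for pairs, which were smaller pseudocounts and each heart left out. Leaving out a heart cannot make separate groups overlap, so those counts could not fall below 10 and do not test stability. The smaller pseudocounts could have lowered the number, and gave 11 and 12. With 3 hearts in each group, the many uncalled members whose groups did not overlap are not shown to be unchanged.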
